A study of Equus caballus with 3 samples.

Results

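Integrins, laminins, cadherins and syndecans are the gene families by which a cell holds to the matrix around it and to its neighbours. The genes were taken by name: every row of the count tables named as an integrin alpha or beta chain, a laminin alpha, beta or gamma chain, a numbered cadherin or a syndecan was taken, which gave 60 of 29927 gene rows. Of these, 16 were integrin alpha chains, 7 integrin beta chains, 11 laminin chains, 22 cadherins and 4 syndecans. A gene passed the filter on low values when its mean over the 3 libraries was at least 1 CPM (the count of a gene scaled to 1000000 of the UMIs summed over the library, where each unique molecular identifier, or UMI, stands for a captured transcript), and 28 of the 60 passed. Another 17 had UMIs but fell below the filter, and 15 had no UMI in any kept cell.

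The mesenchymal stromal cells (MSCs) were derived from fat (adipose tissue, AT), marrow (BM) and circulating blood (peripheral blood, PB) of a single healthy Warmblood mare, 10 years old, and were captured after 2 passages in culture with 1 droplet library per source. All 3 populations shared the same animal and culture protocol, and no treatment is named for any of them. The sources follow the sample titles, because the source name given for each of the samples is blood mononuclear cells. A difference between sources is therefore also a difference between libraries, it has no replicate check, and no test was run. The exact 95% Poisson intervals of sums and the exact Clopper-Pearson intervals of shares cover counting error only.

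Integrins are heterodimers of an alpha and a beta chain that bind matrix proteins or counter-receptors outside the cell and, through talin and kindlin, the actin cytoskeleton inside it. Laminins are trimers of an alpha, a beta and a gamma chain that build the basement membrane and are themselves integrin ligands. Classical cadherins join cells to each other in the presence of calcium and are linked to actin by catenins, while syndecans are transmembrane proteoglycans whose heparan sulfate chains bind growth factors and matrix and assist integrins at adhesion sites. In cultured MSCs these proteins hold the cells to plastic and to the matrix that they secrete.

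The kept barcodes held 2500 to 15000 UMIs and at most 3% mitochondrial UMIs, which left 5403, 5580 and 5318 cells for AT, BM and PB with 39980656, 40239295 and 41622445 UMIs and medians of 7291, 6874.5 and 7750 UMIs per cell. Each library showed stromal genes, and the leukocyte gene *PTPRC*, the endothelial genes *KDR* and *TIE1*, the platelet genes *GP9* and *PPBP*, the epithelial genes *EPCAM* and *KRT14* and the glial gene *SOX10* had no UMI. The list of 7 endothelial markers summed to 0.725, 0.224 and 0.240 CPM and the list of 7 haematopoietic markers to 7.05, 11.3 and 6.34 CPM. Most of the latter was *CD68* (6.88, 11.0 and 4.85 CPM), and *DRA*, a class II major histocompatibility gene, had 2, 2 and 56 UMIs, the last being 1.35 CPM in PB. The keratin gene *KRT8* stood apart, at 45.4 CPM in AT, 1.22 in BM and 0.0240 in PB, and the list of 9 smooth muscle and pericyte markers summed to 1465, 1145 and 723 CPM. Much of that sum was *ACTA2* (721, 763 and 613 CPM), and its members differed in order. *DES* was at 204, 5.04 and 0.288 CPM, *MCAM* at 3.50, 17.7 and 0.577 CPM and *CSPG4* at 1.98, 7.38 and 21.6 CPM. The part of these marker genes in the results was not tested. All 5318 kept PB barcodes were also present in the AT table, 5279 of them there with fewer than 2500 UMIs and so outside the kept AT cells, whereas only 37 to 42 barcodes were kept in both libraries of a pair. Cells called in G1 were 59.2%, 67.2% and 60.2% of the kept cells.

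Taken as 1 group, the 60 genes summed to 644.5 CPM in AT-derived MSCs, 1157 CPM in BM-derived MSCs and 1021 CPM in PB-derived MSCs. BM and PB stood well above AT, and the excess was spread unevenly over the families. Syndecans summed to 69.7 CPM in AT, 235 in BM and 254 in PB, cadherins to 92.4, 203 and 232 CPM, and integrin alpha chains to 107, 228 and 159 CPM. The integrin beta chains summed to 228, 389 and 256 CPM. Laminin alpha chains had the opposite order, with 58.9 CPM in AT, 11.3 in BM and 23.02 in PB, while the laminin beta chains differed little (65.9, 56.3 and 61.9 CPM).

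**Figure D1:**
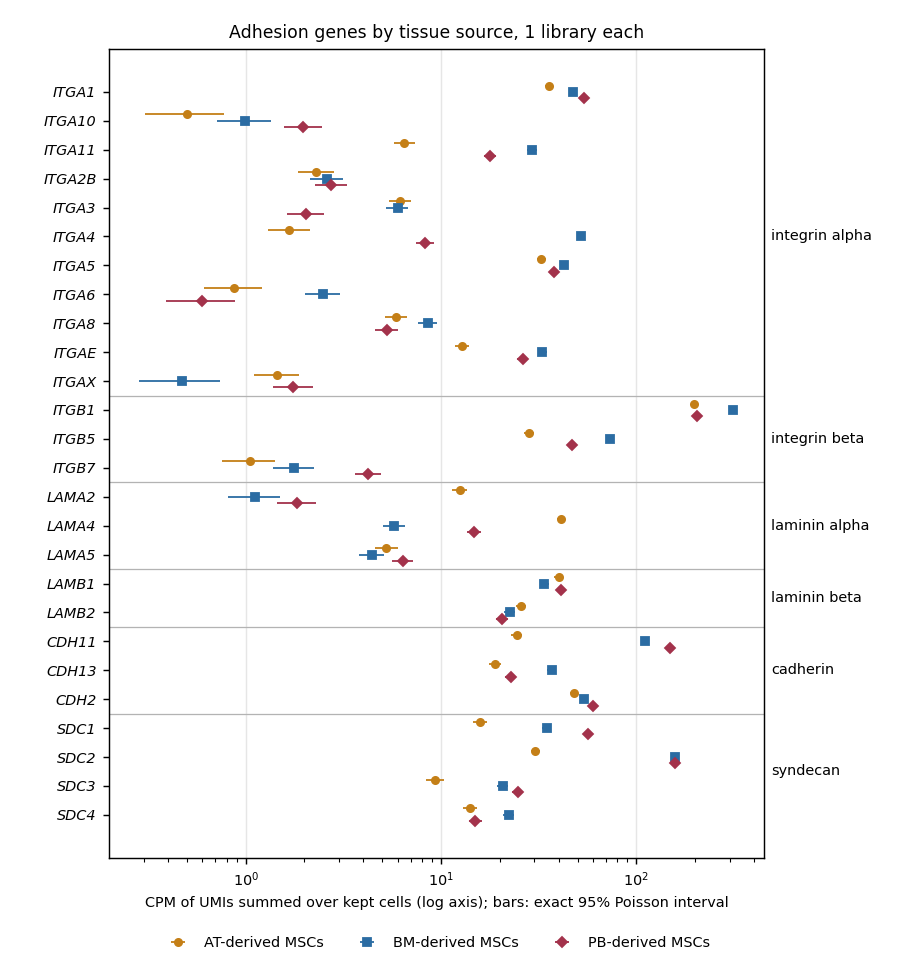
Level of 26 genes that passed the filter in AT-, BM- and PB-derived MSCs, as CPM of the UMIs summed over the kept cells of 1 library per source, on a log axis with exact 95% Poisson intervals. *ITGA4* spreads from 1.68 to 52.3 CPM, *LAMA2* and *LAMA4* lie furthest right in AT, and *SDC2* overlaps in BM and PB far to the right of AT.

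Differences between sources are given as differences of log2(CPM + 1), which understate the change of genes near 1 CPM, and a gene was called when that difference reached 1 in size. In BM against AT, 9 of the 28 genes were called higher and 2 lower, where 8.45% and 2.57% of the 11479 genes that passed the same filter were called. In either direction 11 genes were called, against 11.0% of all genes. Among the 9 higher genes were *ITGA4*, *SDC2*, *CDH11*, *ITGA11*, *ITGB5*, *ITGAE*, *SDC1* and *SDC3*, and the 2 lower ones were *LAMA2* and *LAMA4*. The median difference was 0.45 over the 28 genes and 0.24 over all genes. With TMM factors, which set the all-gene median to -0.01, 7 of the 28 were called higher and 2 lower, and the split over all genes moved from 970 higher and 295 lower to 670 and 456. *SDC1* and *SDC3* were the calls lost with these factors.

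In PB against AT, 8 of the 28 genes were called higher against 5.98% of all genes, and 3 were called lower against 4.42% (10.4% in either direction). Among the higher genes were *CDH11*, *SDC2*, *ITGA4*, *SDC1*, *ITGB7*, *ITGA11* and *SDC3*, and the lower genes were *LAMA2*, *LAMA4* and *ITGA3*. The median difference was 0.25 over these genes and 0.04 over all genes. This comparison shares the AT library with the one above, so that the names common to both are not separate evidence.

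PB and BM lay closer together. In PB against BM, 1 of the 28 genes was called higher (*LAMA4*), against 2.33% of all genes, and 3 were called lower (*ITGA4*, *ITGA3* and *ITGA6*), against 5.94% (8.27% in either direction). The medians were 0.03 for the 28 genes and -0.20 for all genes. TMM factors moved the all-gene median to 0.01 and the splits to 2 higher and 2 lower among these genes, and from 267 higher and 682 lower to 385 and 459 among all genes. Between any 2 of the sources, 14 of the 28 genes were called, where 17.4% of all genes were.

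**Figure D2:**
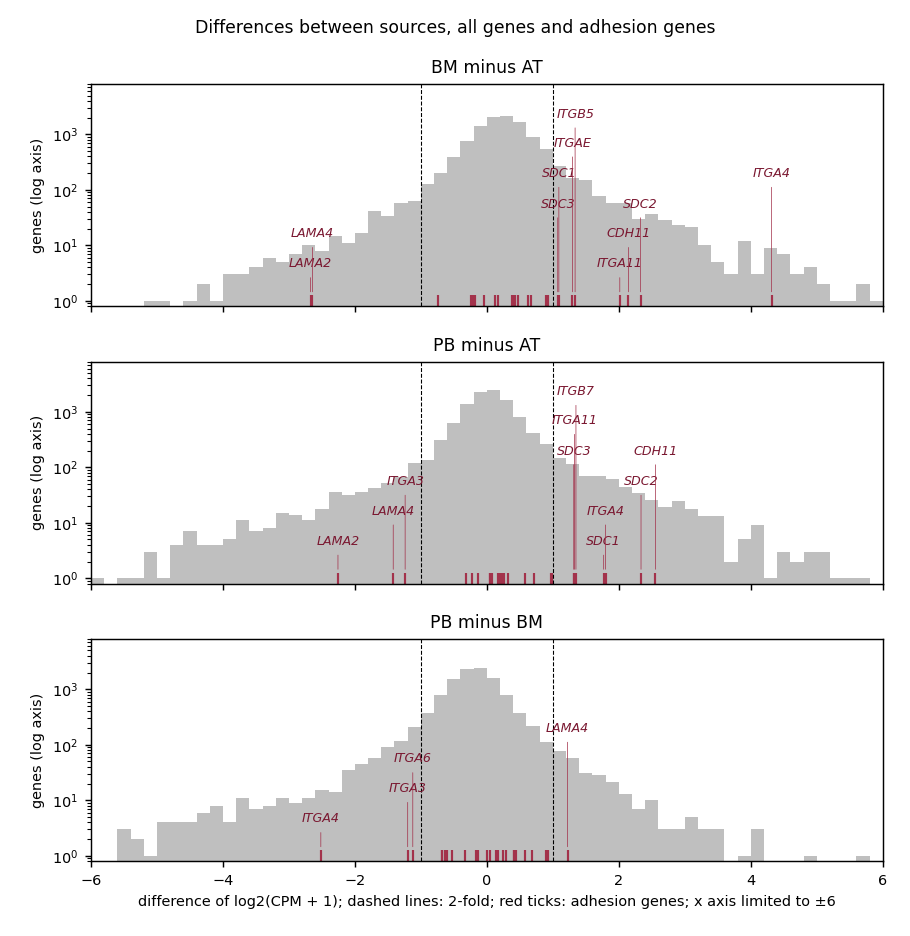
Difference of log2(CPM + 1) for all 11479 genes that passed the filter (grey histogram, log count axis) and for 26 adhesion genes (red ticks) in the 3 comparisons, with 2-fold marked by dashed lines. *ITGA4* lies at 4.32 in BM minus AT and *CDH11* at 2.56 in PB minus AT, while *LAMA2* and *LAMA4* lie at -2.67 and -2.64 in BM minus AT.

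Among the integrin alpha chains, *ITGA4* had the widest span. This chain pairs with *ITGB1* or *ITGB7* and binds VCAM-1 and fibronectin, a route best known from the homing of blood cells. It was at 1.68 CPM in AT (95% interval 1.30 to 2.13, 67 UMIs), 52.3 CPM in BM (50.1 to 54.6, 2104 UMIs) and 8.31 CPM in PB (7.46 to 9.24, 346 UMIs), and no pair of these intervals overlapped. BM was 31.2-fold above AT and 6.29-fold above PB. At least 1 *ITGA4* UMI was present in 1.13% of the AT cells, 27.1% of the BM cells and 6.05% of the PB cells, and after each cell was thinned to 2500 UMIs in 0.333%, 11.97% and 2.24%. No cell type that should lack the chain was present to give a background share. *VCAM1*, its counter-receptor, was itself at 0.5002, 5.24 and 2.28 CPM, in the same order. *FN1*, the gene of fibronectin, was at 1103, 545 and 1276 CPM and so lowest in BM. It was called lower in BM than in AT (-1.01) and higher in PB than in BM (1.23).

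The collagen-binding chains, which all pair with *ITGB1*, differed among themselves. *ITGA11*, a receptor for fibrillar collagens, was at 6.48, 29.2 and 17.8 CPM in AT, BM and PB, 4.51-fold higher in BM than in AT and 2.74-fold higher in PB. *ITGA1*, which binds collagen IV and others, was at 35.7, 47.6 and 53.9 CPM and passed 2-fold in none of the comparisons. *ITGA10*, the chain of cartilage, had only 20, 40 and 82 UMIs, with 0.5002 CPM in AT and 1.97 CPM in PB, and its difference of 0.99 between PB and AT lay just under the threshold, which it passed under 6 of 12 alternative settings, with a difference of 1.21 in cells called G1 as the largest. *ITGA2*, the remaining collagen-binding chain, had 0, 1 and 1 UMIs.

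The chains that bind RGD motifs in fibronectin and related ligands were less spread. *ITGA5*, the classical fibronectin receptor chain, was at 32.6, 42.8 and 38.1 CPM. *ITGA8* was at 5.90, 8.55 and 5.26 CPM, and its AT and PB intervals overlapped. Neither passed 2-fold between sources. Of the laminin-binding chains, *ITGA3* was at 6.18, 5.99 and 2.04 CPM, so that AT and BM overlapped within counting error and PB lay 3.03-fold below AT and 2.93-fold below BM. *ITGA6* was higher in BM, at 0.875, 2.49 and 0.601 CPM, with 25 UMIs in PB, and *ITGA7* had 1, 0 and 1 UMIs.

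Apart from *ITGA4*, given above, chains best known from blood cells and platelets were present at low levels. *ITGAE*, which binds E-cadherin on epithelia and pairs with *ITGB7*, was the exception, at 12.8, 33.0 and 26.1 CPM, 2.57-fold higher in BM than in AT. In PB its CPM was 2.04-fold that of AT, but the difference of log2(CPM + 1) was 0.97 and so was not called. *ITGB7* was at 1.05, 1.76 and 4.23 CPM, highest in PB and 4.03-fold above AT. *ITGA2B*, the platelet chain, was at 2.30, 2.61 and 2.74 CPM with all neighbouring intervals overlapping, and *ITGAX*, a chain of dendritic cells and macrophages, was at 1.45, 0.472 and 1.75 CPM. *ITGB2*, the beta chain with which *ITGAX*, *ITGAM* and *ITGAL* pair, had 2, 0 and 0 UMIs, which is at or below the 3 UMIs that a count of 0 allows. *ITGAM* had 10, 9 and 14 UMIs and *ITGAL* 2, 6 and 2.

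The beta chains were dominated by *ITGB1*, the shared partner of most matrix receptors. Its level was 197 CPM in AT (95% interval 193 to 202), 313 in BM (308 to 319) and 204 in PB (200 to 208), where AT and PB overlapped and BM was 1.59-fold above AT. *ITGB5*, which pairs with the alpha V chain to bind vitronectin, was at 28.4, 73.2 and 46.99 CPM and was called higher in BM than in AT. *ITGB4*, the hemidesmosome chain, had 54, 25 and 36 UMIs and was below the filter. *ITGB8* had 1, 1 and 0 UMIs and *ITGB6*, an epithelial chain, had none. *ITGAV* and *ITGB3* were not analysed here, so that the sums and shares of the integrin chains cover only the 16 alpha and 7 beta chains taken.

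The make-up of the alpha chains followed from these levels. UMIs from the 3′ end count molecules without regard to transcript length, although recovery may differ between genes. *ITGA4* gave 1.56% of the alpha-chain UMIs in the AT library, 22.96% in the BM library and 5.21% in the PB library. *ITGA1* and *ITGA5* gave 33.3% and 30.4% in AT, 20.9% and 18.8% in BM, and 33.8% and 23.9% in PB. Thus *ITGA4* gave the largest share in BM-derived MSCs among the 16 alpha chains taken, which leave out *ITGAV*, and was among the lesser chains of the other two sources.

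**Figure D3:**
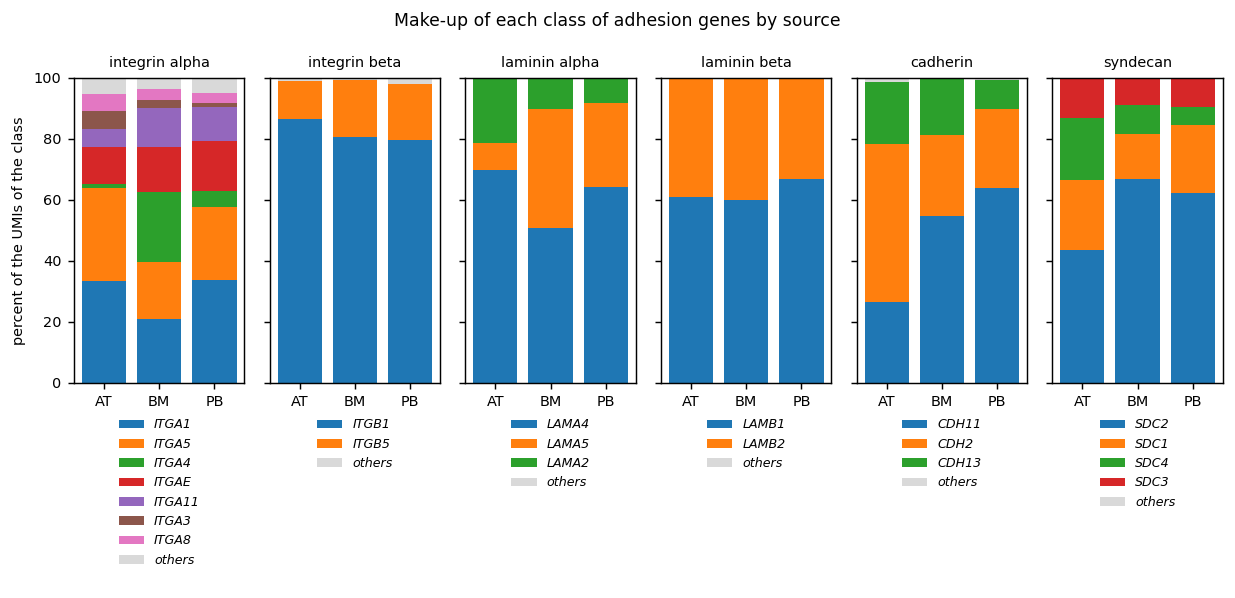
Percent of the UMIs of integrin, laminin alpha, laminin beta, cadherin and syndecan classes given by their chains in AT-, BM- and PB-derived MSCs, stacked to 100, with chains under 3% in every source drawn together as others. *ITGA4* widens from 1.56% to 22.96% of the alpha chains between AT and BM, *LAMA5* from 8.92% to 39.1% of the laminin alpha chains, and *CDH11* from 26.4% of cadherins in AT to 63.9% in PB.

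Among laminins, *LAMA2* and *LAMA4* were called between sources, whereas *LAMA5* and the beta chains did not pass 2-fold. *LAMA4*, a chain of vascular and mesenchymal basement membranes, was at 41.1 CPM in AT (95% interval 39.2 to 43.2), 5.74 in BM (5.02 to 6.53) and 14.8 in PB (13.6 to 16.0). All 3 intervals were apart, with AT 7.16-fold above BM and 2.79-fold above PB, and PB 2.57-fold above BM. *LAMA2*, the chain of muscle and nerve basement membranes, was at 12.5, 1.12 and 1.83 CPM, 11.2-fold higher in AT than in BM and 6.85-fold higher than in PB. *LAMA2* and *LAMA4* both lie on chromosome 10 in the authors' files.

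*LAMA5*, a chain widespread in adult basement membranes, was at 5.25, 4.42 and 6.37 CPM. Its AT interval overlapped both others, while those of PB and BM were apart, with a difference of 0.44. It made up 8.92% of the laminin alpha UMIs of the AT library, 39.1% of those of the BM library and 27.7% of those of the PB library. *LAMB1* was at 40.0, 33.7 and 41.3 CPM and *LAMB2* at 25.7, 22.5 and 20.5 CPM. The common gamma chain *LAMC1* was at 16.7, 18.8 and 16.5 CPM, with both neighbouring pairs overlapping.

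*LAMB3*, a beta chain of epithelial laminin, had no UMI in any library, and *LAMA3*, an alpha chain of the same laminin, was not analysed here and is not part of the laminin alpha sums and shares. *LAMC3* was below the filter with 14, 3 and 86 UMIs, most of them in PB. *LAMA1* had 0, 1 and 3 UMIs and *LAMB4* 3, 2 and 3.

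Of the 22 cadherins, 3 passed the filter and 13 had no UMI. *CDH11*, the cadherin of mesenchyme and osteoblasts, was at 24.4 CPM in AT (95% interval 22.9 to 26.0), 111 in BM (108 to 115) and 148 in PB (145 to 152). It was 4.57-fold higher in BM and 6.08-fold higher in PB than in AT, and the intervals of BM and PB were also apart. At least 1 *CDH11* UMI was found in 16.1% of AT cells, 50.04% of BM cells and 63.7% of PB cells, and at 2500 UMIs per cell in 5.83%, 24.9% and 30.7%. *CDH2*, N-cadherin, was at 47.9, 54.0 and 59.8 CPM and *CDH13*, T-cadherin, which has a lipid anchor in place of a cytoplasmic tail, at 18.9, 36.9 and 22.8 CPM. Thus *CDH2* gave 51.9% of cadherin UMIs in AT and *CDH11* gave 54.8% in BM and 63.9% in PB.

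The cadherins of other tissues were at or near 0. *CDH1*, of epithelia, had 0, 0 and 1 UMIs, and *CDH5*, of endothelium, had 0, 2 and 2. *CDH15*, of muscle, had 5, 0 and 18 UMIs, which is at least 5.801-fold higher in PB than the 3 UMIs that a count of 0 allows over the BM library. *CDH17*, of the intestine, had 11, 5 and 0 UMIs, at least 3.82-fold higher in AT than that limit in PB. *CDH24* had 29, 39 and 36 UMIs and *CDH26* had 3, 0 and 0. *CDH8* and *CDH5*, which flank *CDH11* in the RefSeq gene order (assembly TB-T2T, used only for order), had 0 and at most 2 UMIs per library, respectively.

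All 4 syndecans passed the filter. *SDC2*, the syndecan most typical of mesenchymal cells, was at 30.4 CPM in AT (95% interval 28.7 to 32.2), 157 in BM (153 to 161) and 158 in PB (154 to 162). The intervals of BM and PB overlapped, and both lay more than 5-fold above AT, by 5.16 and 5.19. A *SDC2* UMI was present in 16.1%, 50.9% and 61.1% of cells, and in 6.98%, 28.9% and 30.4% at 2500 UMIs per cell. *SDC1*, best known from epithelia and plasma cells, was at 15.8, 34.9 and 56.4 CPM, 2.20-fold and 3.56-fold above AT. *SDC3*, the neural syndecan, was at 9.30, 20.7 and 24.7 CPM. *SDC4*, which sits in focal adhesions, was at 14.1, 22.2 and 15.02 CPM, with AT and PB overlapping, and it made up 20.3%, 9.47% and 5.92% of the syndecan UMIs of AT, BM and PB.

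Partners of these proteins were taken from lists chosen by function. Of the cytoplasmic proteins at integrin adhesions, 29 of 31 measured genes passed the filter, and 10 of the 29 (34.5%) were called between any 2 sources, against 17.4% of all genes. In BM against AT, 3 were higher and 0 lower (8.45% and 2.57% of all genes), in PB against AT 2 higher and 5 lower (5.98% and 4.42%), and in PB against BM 1 higher and 2 lower (2.33% and 5.94%). The same shares of all genes apply to the 4 lists that follow. The 6 with the widest span were named. *VCL*, vinculin, was at 254, 646 and 304 CPM and *PTK2*, focal adhesion kinase, at 20.3, 33.0 and 14.3 CPM, so that both were highest in BM, as *ITGB1* was. *TNS3*, a tensin, was at 2.25, 15.3 and 7.496 CPM, in the same order as *ITGA4*. *PARVB*, a parvin, was at 0.325, 1.27 and 7.09 CPM. *KANK1* was at 22.1, 13.3 and 7.64 CPM and *KANK2*, which like it links talin to the cell cortex, at 30.6, 70.1 and 54.5 CPM.

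Of the catenins and their junction partners, 8 of 9 passed and 4 were called between any 2 sources (17.4% of all genes), with 3 higher and 0 lower in BM against AT, 2 and 0 in PB against AT, and 0 and 1 in PB against BM. *CTNNB1*, beta-catenin, was at 18.7, 77.5 and 57.3 CPM, and *AFDN*, afadin, at 1.93, 10.6 and 10.4 CPM. Like *CDH11*, both were lowest in AT. *CTNND1*, p120-catenin, was at 28.7, 59.2 and 30.2 CPM and *NECTIN1* at 0.975, 2.71 and 0.673 CPM, both highest in BM. *CTNNA1*, alpha-catenin, was at 86.8, 122 and 103 CPM and *VEZT*, vezatin, at 11.3, 15.4 and 16.5 CPM, neither of them called.

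Of other basement membrane genes and laminin receptors, 15 of 20 passed and 9 were called between any 2 sources (17.4% of all genes). Direction was mixed: 3 were higher and 4 lower in BM against AT, 1 and 4 in PB against AT, and 0 and 4 in PB against BM. *NID1*, nidogen, which bridges laminin to collagen IV, was at 10.6, 96.2 and 132 CPM, lowest in AT, where the laminin alpha chains summed highest. *COL4A1* was at 16.7, 48.2 and 11.15 CPM. *COL18A1*, a proteoglycan of basement membranes, at 23.1, 4.97 and 4.18 CPM, and *FBLN1*, fibulin, at 232, 33.4 and 0.312 CPM, were highest in AT as *LAMA2* and *LAMA4* were. The related *SMOC1* and *SMOC2* were opposite, with *SMOC1* at 0.125, 24.0 and 0.240 CPM and *SMOC2* at 18.5, 0.249 and 0 CPM.

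Among integrin ligands outside the laminins, 15 of 18 passed and 12 of the 15 were called between any 2 sources (17.4% of all genes), with 6 higher and 3 lower in BM against AT, 4 and 3 in PB against AT, and 2 and 3 in PB against BM. *SPP1*, osteopontin, was at 0.7003, 16.6 and 10.9 CPM, *EDIL3*, a ligand of alpha V integrins, at 2.85, 148 and 97.7 CPM, and *TNC*, tenascin, at 5.18, 61.4 and 139 CPM. All of these were lowest in AT. *IBSP*, bone sialoprotein, was at 0, 32.3 and 0.673 CPM. The thrombospondins *THBS1*, at 520, 386 and 90.0 CPM, and *THBS2*, at 496, 149 and 107 CPM, were highest in AT.

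Heparan sulfate enzymes, glypicans and syndecan partners passed in 15 of 21 cases, and 6 of the 15 were called between any 2 sources (17.4% of all genes). In BM against AT 5 were higher and 0 lower, in PB against AT 3 and 0, and in PB against BM 1 and 3. *SULF1* and *SULF2*, which remove sulfate from heparan sulfate outside the cell, were at 3.00, 31.1 and 8.34 CPM and at 7.15, 20.3 and 18.8 CPM. *CASK*, which binds the syndecan tail, was at 11.5, 30.3 and 17.9 CPM and *HS6ST1*, a sulfotransferase, at 6.05, 9.02 and 3.96 CPM. *GPC1*, a membrane glypican, was at 14.6, 36.5 and 83.2 CPM, in the same order as *SDC1*, and *GPC3* at 0.875, 6.01 and 0.240 CPM.

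The cells of each source were then clustered with the 60 genes left out of the clustering, so that these could be described across clusters they did not shape. AT and BM each gave 7 clusters and PB gave 9 of at least 100 cells. Clusters are named by number and leading gene only. Highest and lowest refer to CPM, and the counting intervals of such clusters can overlap those of others. Genes of at least 10 CPM in a library were considered, and the highest and lowest clusters differed by 2-fold in 6 of 16 adhesion genes in AT, 13 of 18 in BM and 10 of 18 in PB, where 20.6%, 34.5% and 42.5% of all such genes did so. The median ranges were 0.80, 1.33 and 1.13 on the log2 scale for these genes and 0.65, 0.79 and 0.91 for all genes.

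*SDC2* had the widest range of these genes in each of the 3 sources. In AT it ran from 7.06 CPM in cluster 6, led by *TOP2A* and made up of cells called S or G2M (100%), to 61.5 CPM in cluster 1, led by *PDLIM3*, *DES* and *ACTG2*. Cluster 1 also held the highest *ITGB1* (292 CPM) and *ITGA5* (49.7 CPM) and the lowest *SDC1* (9.98 CPM) of the AT clusters. Cluster 6 was opposite for *SDC1*, at 31.4 CPM, and held the highest *LAMA4* (64.6 CPM) and *ITGAE* (21.2 CPM). Counting intervals overlapped those of another AT cluster for the highest *ITGAE* and for the lowest *SDC1* and *SDC2*.

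In BM, *SDC2* and *ITGA4* were lowest in cluster 3, a set of 654 cells led by *CALCA*, *EMB* and *IGFBP5* of which 90.1% were called S or G2M. There *SDC2* was at 13.8 CPM and 183 in the other BM cells, *ITGA4* at 4.70 and 60.9 CPM, *ITGA8* at 0.486 and 10.0 CPM, and *CDH11* at 43.6 and 124 CPM. The same cluster held more *ITGA3* (13.8 and 4.58 CPM), *LAMA4* (12.6 and 4.49 CPM), *LAMA2* (3.73 and 0.646 CPM) and *CDH2* (75.5 and 50.1 CPM). Its *ITGB1* was nearly that of the other cells, at 311 and 313 CPM. Without this cluster the difference between BM and AT was 4.53 for *ITGA4*, 2.55 for *SDC2* and -2.94 for *LAMA4*, against 4.32, 2.33 and -2.64 with it, whereas *ITGA3* and *ITGA6* were no longer called between PB and BM, at -0.87 and -0.97.

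The other BM clusters divided the adhesion genes further. Cluster 1, led by the bone matrix genes *IBSP* and *SPP1*, had the highest *SDC2* (297 CPM), *CDH11* (187 CPM) and *SDC3* (37.0 CPM) and the lowest *ITGB1* (250 CPM) and *ITGA5* (29.0 CPM) of the BM clusters. Cluster 2, led by *TOP2A*, had the highest *ITGA4* (90.6 CPM), *ITGB1* (375 CPM) and *ITGA5* (62.0 CPM). Cluster 4, led by *LENEP* and *CTSK*, had the highest *ITGB5* (121 CPM) and *LAMB1* (51.1 CPM), and cluster 5, led by *CDC42EP3*, the highest *ITGA11* (45.1 CPM). Cluster 3, led by *CALCA*, lay at the opposite end for *ITGA4*. Counting intervals overlapped those of another BM cluster for the highest *ITGB1*, *LAMB1* and *ITGA11* and for the lowest *ITGA5*.

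In PB, cluster 7, led by *CDK1* and *CCNA2*, had the highest *ITGB1* (333 CPM), *ITGA5* (64.4 CPM), *ITGAE* (54.5 CPM) and *CDH2* (79.0 CPM) and the lowest *CDH11* (65.6 CPM). Cluster 4, led by the chemokine gene *CCL20* and by *SAA1*, had the highest *SDC4* (32.5 CPM, with 8.91 CPM in cluster 5). *SDC2* was highest in cluster 6, led by *PIGK* and *PLTP*, at 273 CPM, and lowest in cluster 8, led by *SFRP2*, at 45.5 CPM. Cluster 8, of only 146 cells, also had the highest *ITGA1* (93.9 CPM) and *CDH13* (41.7 CPM) and the lowest *ITGA11* (6.64 CPM). *SDC1*, in contrast, stayed between 50.04 and 63.4 CPM in all 9 PB clusters. Counting intervals overlapped those of another PB cluster for the highest *CDH2*, *SDC4* and *CDH13* and for the lowest *SDC2* and *ITGA11*. *ITGA10*, below 10 CPM in each source and so outside the counts above, ran from 0 in cluster 8 to 13.5 CPM over the PB clusters. These values rest on the 82 *ITGA10* UMIs of the PB library, which were spread unevenly over its clusters. Its highest AT and BM clusters were at 0.806 and 1.97 CPM.

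**Figure D4:**
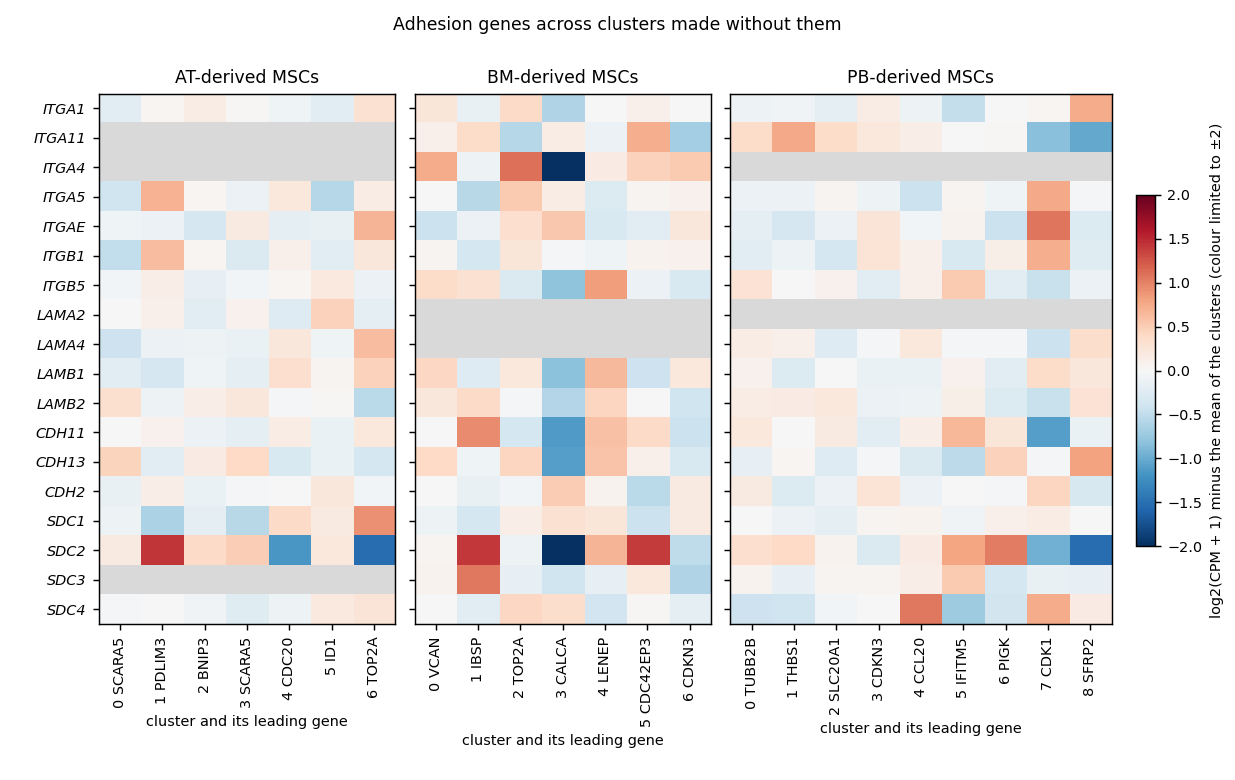
Level of the adhesion genes in each cluster of AT-, BM- and PB-derived MSCs, as log2(CPM + 1) minus the mean over the clusters of that source, with grey for genes under 10 CPM in the source and the colour limited to 2 in size. The darkest fields are *ITGA4* and *SDC2* in the *CALCA*-led BM cluster.

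The CPM of clusters was also compared between sources, without allowance for counting error. Every BM cluster lay above every AT cluster for 5 of the 28 genes, *ITGA4*, *ITGA11*, *ITGAE*, *ITGB5* and *CDH11*, where 10.6% of all genes did so, and below for 2, *LAMA2* and *LAMA4* (2.89% of all genes). Every PB cluster lay above every AT cluster for 4, *CDH11*, *ITGB5*, *SDC1* and *SDC3* (6.09%), and below for *LAMA2* and *LAMA4* (4.59%). Every PB cluster lay above every BM cluster for *SDC1* and *ITGAX* (1.5%), although for *ITGAX* the lowest PB cluster held only 1 UMI, and for none of the 28 did every PB cluster lie below (3.94%). The intervals of the lowest PB and highest BM clusters overlapped for *SDC1* (44.5 to 56.1 and 38.8 to 49.5 CPM). Those of the nearest BM and AT clusters overlapped for *ITGAE* (21.1 to 27.3 and 16.8 to 26.3 CPM) and *ITGB5* (33.4 to 43.3 and 26.8 to 39.1 CPM). For PB and AT they overlapped for *ITGB5* (27.6 to 39.0 CPM in PB) and *LAMA4* (11.6 to 29.3 and 27.5 to 35.5 CPM). *ITGA4* was at 4.70 CPM in its lowest BM cluster and at 3.62 CPM in its highest AT cluster. *SDC2* is absent from these sets, since its lowest BM cluster, at 13.8 CPM, and its lowest PB cluster, at 45.5 CPM, reached into the range of the AT clusters. Clusters of a source share its library, so that these counts describe the cells and not replicates.

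Cells called S or G2M were finally set against cells called G1, using genes of at least 10 CPM in the source. *SDC2* was lower in cells called S or G2M of all 3 sources, at 19.1 against 38.0 CPM in AT, 74.6 against 206 CPM in BM and 132 against 175 CPM in PB, and the difference was 0.95, 1.45 and 0.40 on the log2 scale. *CDH11* was lower in cells called S or G2M by 0.98 in BM and by 0.31 in PB, while in AT cells called S or G2M were higher by 0.16 with counting bounds that include 0. *ITGB5* was lower in BM cells called S or G2M, at 50.5 against 86.7 CPM. In BM, where the cells called S or G2M include most of the *CALCA*-led cluster, 5 of 18 genes were lower by at least 0.5 and 1 was higher, where 9.66% and 17.8% of all genes of at least 10 CPM were. In AT 1 of 16 was lower and 1 higher (0.838% and 5.85% of all such genes), and in PB 0 of 18 were lower and 2 higher (0.331% and 4.43%).

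Among the genes higher in cells called S or G2M by at least 0.5 were *SDC1* in AT and *ITGAE* in BM and PB. *SDC1* was at 21.3 against 12.2 CPM in AT, 41.8 against 30.8 in BM and 57.9 against 55.5 in PB. *ITGAE* was higher in cells called S or G2M of every source, at 15.1 against 11.3 CPM in AT, 43.6 against 26.7 in BM and 32.2 against 22.1 in PB. *HASPIN*, a mitotic kinase gene that lies inside *ITGAE* on the opposite strand in mammals, was itself higher in cells called S or G2M, at 3.80 against 0.418, 7.68 against 0.713 and 3.72 against 0.561 CPM, and its part in the *ITGAE* counts was not tested. With cells called G1 alone, the differences between BM and AT were 2.50 for *CDH11* and 4.61 for *ITGA4*, against 2.15 and 4.32 in all kept cells.

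**Figure D5:**
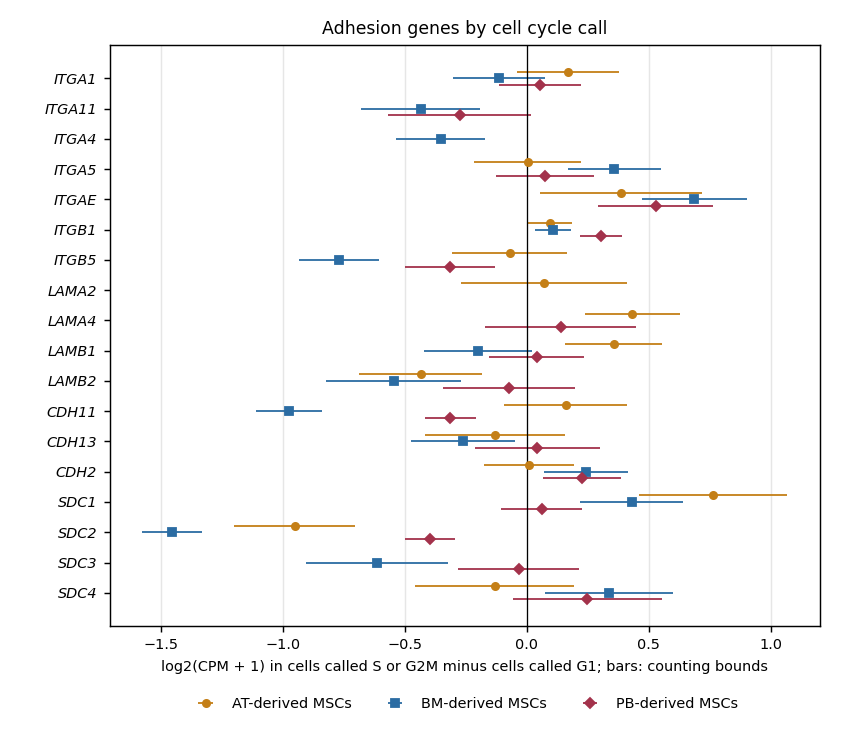
Difference of log2(CPM + 1) between cells called S or G2M and cells called G1 in each source, with bounds from the exact Poisson intervals of both sums. *SDC2* lies left of 0 in all 3 sources, at -0.95, -1.45 and -0.40, and *ITGAE* lies right of 0 in all 3, at 0.39, 0.69 and 0.53.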

How the data were processed

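Droplet libraries (10X Genomics, 3′ end kit, version 2) of AT-, BM- and PB-derived MSCs were available, 1 per source. The authors mapped reads to EquCab3.0 with CellRanger and quantified UMIs with ESAT, which adds reads just downstream of genes and leaves out overlapping exons on opposite strands. For features duplicated in the genome, the paper describes another ESAT run with scaling of multimapped reads, whose counts were merged per gene and appended. The tables deposited by the authors hold whole-number counts for each gene in each barcode, with the gene's chromosome and strand. These were taken as raw UMI counts, and whether any of the 60 genes came from that run was not checked.

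A barcode was kept if it had between 2500 and 15000 UMIs of which no more than 3% were mitochondrial. Levels are CPM of UMIs summed over kept cells, with exact 95% Poisson or Clopper-Pearson intervals (SciPy 1.17.1). A count of 0 allows 3 UMIs, or 0.0750, 0.0746 and 0.0721 CPM. With 1 library per source no test was run. Of the 60 genes, those with a mean of at least 1 CPM are named with levels, apart from results that are not reported here, the others by UMIs, and from each partner list the 6 with the widest range. The genes, lists and alternatives were chosen with earlier results of these data known.

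Clustering in R 4.3.3 used Seurat 5.3.0, the first-version method of sctransform 0.4.2, resolution 0.6 and the numbers of principal components of the study's methods (AT 14, BM 23, PB 20). The 3 leading genes of a cluster have the largest fold over other cells among genes of at least 50 CPM. Phases came from CellCycleScoring. The doublet caller of the study was not run, and as an alternative those 5% of cells that Scrublet (Scanpy 1.11.5) scored highest were left out. TMM factors came from edgeR 4.0.16. The calculation of the log2 differences was checked on simulated Poisson counts. These hold no variation between libraries or between cells, so they give no measure of replicate error.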

Additional observations from a re-analysis of the deposited data

Results flagged for a closer look

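A signal appeared in barcodes that the comparisons do not use. The AT table holds 5279 barcodes with fewer than 2500 UMIs (median 827) that the PB library kept as cells. Summed over their 4428290 UMIs, 10 of the genes called between PB and AT were each nearer, on the log2 scale, to the level in kept PB cells than to that in kept AT cells. Among the genes higher in PB, *CDH11* was at 152 CPM, *SDC2* at 154, *SDC1* at 49.9, *SDC3* at 23.3, *ITGA11* at 17.4, *ITGA4* at 8.58 and *ITGB7* at 5.87 CPM in these barcodes. Among the genes lower in PB, *LAMA4* was at 14.7 CPM, *LAMA2* at 4.74 and *ITGA3* at 1.81. In the 444 AT barcodes below the limit that are absent from the PB table altogether, with 610725 UMIs, *CDH11* was at 22.9 CPM, *SDC2* at 19.6 and *LAMA4* at 49.1, each nearer to kept AT cells. *ITGA11*, at 13.1 CPM, lay between kept AT (6.48 CPM) and kept PB cells (17.8 CPM). Each gene had few UMIs in these 444 barcodes, and no counting interval was computed for them. The kept AT cells hold 37 barcodes that PB also kept, and leaving shared barcodes out lost none of the calls.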

How the results depend on the processing

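Each difference was recomputed under 12 alternatives, and of the 26 calls among the 28 genes all kept their direction and 7 stayed past 2-fold in every one. Most losses came with a pseudocount of 25 CPM, which damps low genes: it left 3 higher and 1 lower in BM against AT, 2 and 0 in PB against AT, and 0 and 1 in PB against BM, with 151 and 57, 108 and 71, and 36 and 91 of all genes. A mean of at least 10 CPM, which tests fewer genes, left 1 lower in each comparison, and of all genes 471 and 133, 328 and 208, and 113 and 319. TMM factors called 2 of the 28 and 456 of all genes lower in BM against AT. They also called 2 of the 28 and 385 of all genes higher in PB against BM. In PB against BM, cells called G1 alone gave 2 higher and 1 lower, with 262 and 624 of all genes. Thinning to 2500 UMIs gave the same 2 and 1, with 270 and 740 of all genes. No filter on low values gave 2 higher, with 292 of all genes. Leaving out the *CALCA*-led BM cluster, an alternative chosen after seeing the data, left 1 lower in PB against BM, with 555 of all genes. All barcodes with at least 500 UMIs lost *SDC1* and *SDC3* in BM against AT and put *CDH11* at 1.56. This setting took AT from 5403 to 10652 barcodes, BM from 5580 to 6065 and PB from 5318 to 5889. Of the 6155 AT barcodes with fewer than 2500 UMIs, 5279 are the ones that PB kept, described above. Their part in these losses was not tested. Calls were also gained: *ITGA10* in PB against AT under 6 alternatives, *ITGAE* there with thinning, *ITGB7* in PB against BM under 3, and *CDH13* in BM against AT without the *CALCA*-led cluster. The cause of these changes was not tested beyond what the settings themselves do. No paired analysis was possible because each source had 1 library and no test was run. For genes with few UMIs, such as *ITGA6*, *ITGA10* and *ITGAX*, depth limits the comparison.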
